A study of Homo sapiens with 28 samples.

Results

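The expression of 10 genes that mark simple epithelium was described: the type II keratins KRT7, KRT8 and KRT80, the type I keratins KRT18 and KRT19, the surface proteins EPCAM and MUC1, the splicing factors ESRP1 and ESRP2, and the transcription factor GRHL2. They were chosen by name, with earlier results of these data known. All 10 were found among the 26346 gene symbols counted, and all 10 were among the 14220 genes that passed the filter on low counts. Each was measured in 28 RNA sequencing libraries of AN3CA cells, an established line of human endometrial carcinoma, that expressed a construct of ARID1A or ARID1B or carried an empty vector. ARID1A and ARID1B each serve as the large ARID subunit of canonical BAF, a complex that moves nucleosomes with energy from ATP, and both hold an ARID domain that binds DNA and long disordered regions (IDRs).

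Keratins build the intermediate filaments of epithelial cells as pairs of a type I and a type II chain, and KRT8 with KRT18 is the pair of simple, single-layered epithelia such as that of the endometrium. KRT7 and KRT19 are added in ductal and glandular epithelia, and KRT80 is a type II keratin found in many epithelia. EPCAM is an adhesion protein and MUC1 a transmembrane mucin of the apical surface. ESRP1 and ESRP2 direct epithelial splicing of pre-mRNA, and GRHL2 is a transcription factor that keeps epithelial genes on and opposes the transition to mesenchymal cells, in which ZEB1 and SNAI factors repress epithelial promoters.

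The 12 constructs had 2 libraries each. The 7 of ARID1A were wild-type (WT), 2 truncations named CBR and delIDR1, DBDmut with a mutated ARID domain, a hybrid that holds the IDR of the helicase DDX4 (DDX4 hybrid), AQGscram (an AQG scramble), and 42YS. The 5 of ARID1B were WT and the deletions M2 (S320_G327del), A457_G461del, Block13del and Block9del. The empty vector had 4 libraries. The labels give the treatment as none and no time point, and all groups share the AN3CA background. They name neither the promoter of the constructs nor the number of clones, and they write the letters of 42YS in more than 1 order, so the exact change is not stated here. Nor do they state that replicates are separate cultures, and p-values therefore reflect just the spread among the libraries at hand, possibly a technical one. Values are in CPM, the read count of a gene per 1e+06 gene reads of its library after TMM scaling, errors of CPM are standard deviations (n = 2 per construct, n = 4 for the empty vector) and errors of log2 fold changes are standard errors (SE).

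Among the members that passed the test in a WT comparison, KRT8 and MUC1 matched the promoter table of RefSeq (GRCh38.p14), and their promoters are shown because both were higher with ARID1A WT. KRT7, KRT18, KRT19 and KRT80 did not match, and ESRP1, which also passed the test, is not shown. For MUC1 the first of 2 near-identical windows is given. The windows run from 250 bases before to 50 after an annotated start, and are printed 5′ to 3′ on the strand of the gene. KRT8 is chr12:52926420-52926719 and MUC1 is chr1:155192866-155193165, both on the minus strand. Capitals mark matches, on either strand, to GGAATG (TEAD factors), CACCTG (the E-box bound by ZEB and SNAI factors) and GGGCGG (SP and KLF factors).
KRT8: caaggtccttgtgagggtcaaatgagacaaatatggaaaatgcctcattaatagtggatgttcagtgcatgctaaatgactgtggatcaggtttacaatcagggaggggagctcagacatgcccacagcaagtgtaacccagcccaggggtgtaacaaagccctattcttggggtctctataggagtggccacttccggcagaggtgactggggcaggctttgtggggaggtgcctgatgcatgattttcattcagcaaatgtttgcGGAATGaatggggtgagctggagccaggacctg
MUC1: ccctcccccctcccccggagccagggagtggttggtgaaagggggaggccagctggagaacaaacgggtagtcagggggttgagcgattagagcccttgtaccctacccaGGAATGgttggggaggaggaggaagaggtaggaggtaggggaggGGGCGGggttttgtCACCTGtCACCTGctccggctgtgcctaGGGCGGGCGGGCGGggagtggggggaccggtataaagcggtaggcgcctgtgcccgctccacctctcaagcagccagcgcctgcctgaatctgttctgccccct
The KRT8 window held 1 match to GGAATG, with its first base at position 18 counted from the start as 1, and none to CACCTG or GGGCGG. GENCODE v29 annotates further KRT8 starts, and which start was used was not measured. The MUC1 window held 1 match to GGAATG at -140, 2 to CACCTG at -82 and -75, and 4 to GGGCGG between -96 and -46, of which the last 3 overlap. Neither window held TGANTCA (AP-1) or AACCGGTT (GRHL factors). Among 35116 promoter windows of this length, 14% held GGAATG, 20.6% CACCTG, 45% GGGCGG, 7.71% TGANTCA and 0.134% AACCGGTT. The GC content was 50.7% for KRT8 and 65.7% for MUC1, against a median of 58.7% over all windows.

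Libraries held between 16.568 and 27.867 M reads on genes (median 22.045 M, with M for 1e+06). The share of stranded reads that lay opposite to the gene split the libraries into 3 sets, found in the data: 84.5 to 87.8% in set 1 (DBDmut, CBR, delIDR1, ARID1A WT, and replicates 1 and 2 of the empty vector), 98.1 to 98.6% in set 2 (M2, ARID1B WT, the DDX4 hybrid, and replicates 3 and 4 of the empty vector) and 96.7 to 97.9% in set 3 (AQGscram, 42YS, A457_G461del, Block13del and Block9del, with no empty vector library). "Own pair" below means the 2 empty vector libraries of the construct's own set. Between the 2 pairs of empty vector libraries 58.5% of tested genes were called, that is had an adjusted p under 0.05 in the edgeR quasi-likelihood test. As a check of the labels, ARID1A RNA averaged 733 CPM with ARID1A WT, 1017 with CBR, 665 with DBDmut, 589 with delIDR1, 523 with the DDX4 hybrid, 374 with 42YS and 247 with AQGscram, against 288 ± 12.5 CPM in the empty vector, so AQGscram libraries did not show more ARID1A RNA. DDX4 RNA was 46.0 CPM with the DDX4 hybrid and at most 0.19 CPM in every other group. Mesenchymal genes and some genes of the endometrial lineage were present (VIM 2176 to 6614 CPM, ZEB1 111 to 212, PAX2 30.9 to 61.3, HOXA10 5.83 to 22.7), whereas the endometrial markers ESR1, PGR, SOX17 and WFDC2 were at or below 0.0944 CPM in every library. The summed CPM of 5 immune markers was 0.136 to 0.802 over all libraries. That of 4 endothelial markers was 0.422 to 0.585 with ARID1A WT, 0.445 to 0.497 with M2, at least 0.396 with CBR and 0.0944 to 0.11 with ARID1B WT, against 0 to 0.272 in the empty vector. Taken gene by gene, the highest value in any library was 0.459 CPM for CDH5, 0.349 for VWF, 0.233 for PECAM1 and 0.0461 for KDR. CDH5 averaged 0.385 CPM with M2, against 0.0113 in the empty vector. The part of the endothelial markers in the results was not tested.

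KRT18, the type I partner of KRT8, was the most abundant member in CPM, with at least 9.89 CPM in every library. In these bulk samples fewer cells of a type and less RNA per cell cannot be told apart. ARID1B M2 libraries held 80 and 83.2 CPM and ARID1B WT libraries 48.0 and 46.0 CPM. ARID1A WT libraries held 45.9 and 46.1 CPM, delIDR1 25.9 and 27.2, DBDmut 24.9 and 23.5, CBR 22.1 and 18.9, and the DDX4 hybrid 18.1 and 19.1. These 7 groups, and A457_G461del with 21.1 and 21.0 CPM, lay above all 4 empty vector libraries, which held 13, 11.7, 10.6 and 11.5 CPM. The remaining groups overlapped the empty vector: Block13del with 12.9 and 14.5 CPM, AQGscram with 12 and 14.7, 42YS with 10.7 and 9.89, and Block9del with 10.6 and 10.4. In order of means, M2 stood apart, ARID1B WT and ARID1A WT overlapped, A457_G461del and the DDX4 hybrid each overlapped CBR, delIDR1 and DBDmut stood apart from their neighbours, and the groups from Block13del down to 42YS each overlapped a neighbour.

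Against the empty vector, KRT18 rose with ARID1A WT by a log2 fold change of 1.97 ± 0.081 (adjusted p = 1.26e-13) and with ARID1B WT by 2.0 ± 0.081 (adjusted p = 1.37e-13). The rise was 2.79 ± 0.079 with M2 (adjusted p = 3.62e-16), 1.18 ± 0.083 with delIDR1, 1.04 ± 0.084 with DBDmut, 0.84 ± 0.084 with A457_G461del, 0.80 ± 0.085 with CBR and 0.66 ± 0.085 with the DDX4 hybrid (adjusted p = 6.54e-06 for the last). KRT18 did not pass the test with AQGscram (0.19 ± 0.088, adjusted p = 0.118), 42YS (-0.19 ± 0.091, adjusted p = 0.11), Block13del (0.22 ± 0.089, adjusted p = 0.0529) or Block9del (-0.16 ± 0.091, adjusted p = 0.168). Against the own pair the KRT18 values were 1.90 ± 0.084 for ARID1A WT and 2.08 ± 0.09 for ARID1B WT. The empty vector pairs themselves held 11.1 ± 0.668 CPM (replicates 3 and 4) and 12.3 ± 0.936 CPM (replicates 1 and 2), a difference that did not pass the test.

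**Figure D1:**
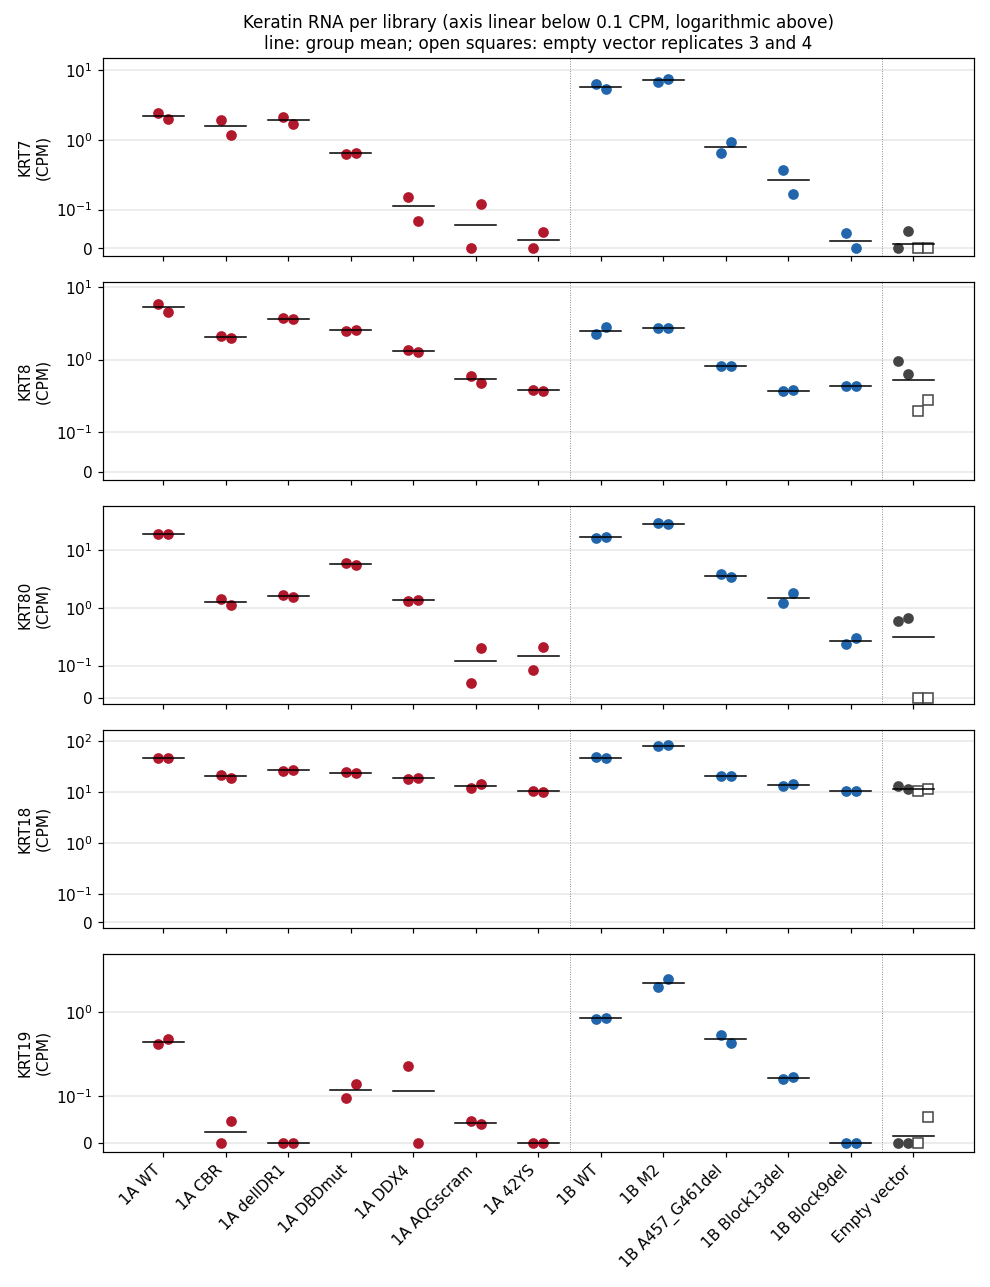
CPM of the 5 keratins, 1 point per library, in 7 ARID1A constructs (red, 1A), 5 ARID1B constructs (blue, 1B) and the empty vector (grey). Lines are group means, open squares are empty vector replicates 3 and 4, and the vertical axes are linear below 0.1 CPM and logarithmic above. KRT18 had its highest libraries with ARID1B M2 (80 and 83.2 CPM), and KRT7 and KRT19 had at most 1 read in any empty vector library.

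KRT8, the type II partner, was highest with ARID1A WT and not with the ARID1B constructs. ARID1A WT libraries held 5.91 and 4.59 CPM, delIDR1 3.71 and 3.64, DBDmut 2.5 and 2.58, CBR 2.11 and 1.96, and the DDX4 hybrid 1.37 and 1.27. M2 libraries held 2.71 and 2.76 CPM and ARID1B WT libraries 2.25 and 2.78. All 7 groups lay above the empty vector libraries, which held 0.952, 0.629, 0.196 and 0.279 CPM. AQGscram (0.589 and 0.477), 42YS (0.382 and 0.371), A457_G461del (0.815 and 0.823), Block13del (0.367 and 0.373) and Block9del (0.426 and 0.435) lay within the range of the empty vector.

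The log2 fold change of KRT8 against the empty vector was 3.25 ± 0.264 with ARID1A WT (adjusted p = 4.59e-09), 2.74 ± 0.269 with delIDR1, 2.21 ± 0.284 with DBDmut, 1.89 ± 0.291 with CBR and 1.26 ± 0.302 with the DDX4 hybrid (adjusted p = 0.00282). It was 2.20 ± 0.287 with ARID1B WT (adjusted p = 4.36e-06) and 2.32 ± 0.277 with M2. The empty vector pairs differed, with 0.237 ± 0.0584 CPM in replicates 3 and 4 against 0.791 ± 0.228 CPM in replicates 1 and 2 (log2 fold change -1.69 ± 0.41, adjusted p = 0.00181). Against the own pair, the log2 fold change of KRT8 was 2.71 ± 0.194 with ARID1A WT and 3.37 ± 0.32 with ARID1B WT, and the difference between these 2 responses did not pass the test (0.66 ± 0.456, adjusted p = 0.349).

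KRT8 and KRT18 overlap on opposite strands in GENCODE v29, and 53.2 to 87.2% of the stranded reads of KRT8 lay on its own strand, which in these reverse-stranded libraries is the side of transcripts that run against KRT8, as KRT18 does. Those reads averaged 14.1 ± 0.379 CPM with M2, 7.14 ± 0.0835 with ARID1B WT and 7.11 ± 0.541 with ARID1A WT, against 1.78 ± 0.514 CPM in the empty vector, an order that is that of KRT18. They are not in the KRT8 values above. Whether the KRT8 values of set 1, where 84.5 to 87.8% of stranded reads lay on the expected strand, hold some reads of KRT18 was not tested. Per kilobase of transcript, KRT18 exceeded KRT8 in every library, by 9.51 to 10.2 times with delIDR1, 10.6 to 13.7 times with ARID1A WT, 22.5 to 29 times with ARID1B WT and 40.1 to 41.0 times with M2, against 18.6 to 25.3 times in empty vector replicates 1 and 2 and 56.3 to 73.5 times in replicates 3 and 4. KRT8 and KRT18 also have many near-identical processed pseudogenes, of which KRT8P41 had no read and KRT18P55 at most 7 reads in any library. How the authors' counting placed reads that match both is not given in the sources used here.

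KRT80 spanned 0 to 29.4 CPM over the libraries. M2 libraries held 29.4 and 28.4 CPM, ARID1A WT 19.1 and 19.4, ARID1B WT 16.5 and 17.0, DBDmut 6.10 and 5.58, and A457_G461del 3.83 and 3.45. These 5 groups did not overlap one another. Next came delIDR1 (1.66 and 1.53 CPM), Block13del (1.21 and 1.78), the DDX4 hybrid (1.33 and 1.37) and CBR (1.45 and 1.12), which overlapped in part. Block9del had 0.233 and 0.304 CPM, 42YS 0.0849 and 0.206, and AQGscram 0.0453 and 0.199. Empty vector replicates 1 and 2 held 0.589 and 0.674 CPM (13 and 15 reads) and replicates 3 and 4 held no read.

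The log2 fold change of KRT80 against all 4 empty vector libraries was 5.73 ± 0.347 with ARID1A WT (adjusted p = 5.2e-11), 5.53 ± 0.35 with ARID1B WT (adjusted p = 1.7e-10) and 6.32 ± 0.337 with M2 (adjusted p = 9.12e-12). Smaller rises passed the test with DBDmut (4.01 ± 0.389), A457_G461del (3.33 ± 0.409), delIDR1 (2.14 ± 0.479), Block13del (2.07 ± 0.488), the DDX4 hybrid (1.91 ± 0.479) and CBR (1.84 ± 0.502, adjusted p = 0.00458). The call was lost without CBR replicate 1 for CBR (1.63, adjusted p = 0.0569) and without Block13del replicate 2 for Block13del (1.74, adjusted p = 0.0595). KRT80 did not pass it with AQGscram, 42YS or Block9del (adjusted p = 0.214, 0.249 and 0.667). Against the own pair the value was 4.92 ± 0.162 with ARID1A WT and 1.02 ± 0.287 with CBR. For set 2, whose empty vector pair held no read, the rise was at least 186-fold with ARID1B WT, at least 320-fold with M2 and at least 15.0-fold with the DDX4 hybrid, against 3 counts over the pair. Bounds of this kind, here and below, take the reads of the higher group as exact and leave out their counting error. With replicates 3 and 4 as the only control, KRT80 also passed the test in AQGscram, 42YS and Block9del (6, 7 and 13 reads). Against 3 counts these were 1.41, 1.62 and 2.95-fold higher, which at so few reads is no firm lower limit. With replicates 1 and 2 as the only control KRT80 was lower in those groups (log2 fold changes -2.27 ± 0.487, -2.07 ± 0.469 and -1.23 ± 0.406).

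KRT7, the ductal type II keratin, had 1 read in all 4 empty vector libraries together. M2 libraries held 6.73 and 7.39 CPM, ARID1B WT 6.21 and 5.24, ARID1A WT 2.40 and 2.01, delIDR1 2.14 and 1.66, and CBR 1.94 and 1.17. A457_G461del had 0.652 and 0.94 CPM, DBDmut 0.624 and 0.646, Block13del 0.367 and 0.166, and the DDX4 hybrid 0.152 and 0.0703. AQGscram, 42YS and Block9del held 3, 1 and 1 reads over their 2 libraries. The ratio to the empty vector, with its 95% exact counting interval, was 170 (29.6 to 6774) for ARID1A WT, 441 (78.3 to 17493) for ARID1B WT and 545 (97.2 to 21602) for M2.

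KRT7 passed the test against the empty vector with ARID1A WT (adjusted p = 1.17e-08), CBR, delIDR1, DBDmut, ARID1B WT (adjusted p = 9.97e-11), M2, A457_G461del and Block13del (adjusted p = 0.00361, or 0.0606 without Block13del replicate 1), and not with the DDX4 hybrid (ratio 8.51, interval 1.03 to 391, adjusted p = 0.0586). Because KRT7 passed the filter on low counts through the groups where it was high, these calls are a description. KRT7 was higher with ARID1B WT than with ARID1A WT in the direct comparison (log2 fold change 1.38 ± 0.309, adjusted p = 0.00594). The difference of the own-pair responses did not pass the test (3.71 ± 2.794, adjusted p = 0.31), and it rests on an empty vector pair with no read. KRT7 overlaps KRT86 on the same strand in GENCODE v29, so reads of shared exons are uncertain.

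KRT19, a small type I keratin that lacks a tail domain, was detected at few reads. M2 libraries held 1.99 and 2.45 CPM (52 and 55 reads), ARID1B WT 0.824 and 0.85, A457_G461del 0.53 and 0.431, ARID1A WT 0.41 and 0.469, and Block13del 0.157 and 0.166. Every other library had 0 to 6 reads, and the empty vector had 1 read in replicate 4 and none in the others. The ratio to the empty vector was 171 (30.0 to 6801) for M2, 65.0 (10.9 to 2643) for ARID1B WT, 37.2 (6.06 to 1528) for A457_G461del, 34.3 (5.38 to 1434) for ARID1A WT and 12.6 (1.62 to 567) for Block13del, and all 5 passed the test (adjusted p = 1.48e-07, 2.64e-05, 0.000371, 0.000524 and 0.0308). KRT19 passed the filter on low counts through the groups where it was high, so these calls are a description. The Block13del call was lost without either of its libraries or without empty vector replicate 1 or 2 (adjusted p = 0.0707 to 0.116). No read was found with delIDR1, 42YS or Block9del, which allows up to 3 counts over the 2 libraries. Intervals and this limit cover counting error only.

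MUC1, the apical mucin, stayed between 1.41 and 3.86 CPM. The highest libraries were those of delIDR1 (3.45 and 3.86 CPM), DBDmut (3.17 and 3.83), ARID1A WT (3.10 and 3.61), ARID1B WT (3.35 and 2.60), the DDX4 hybrid (2.89 and 2.74), AQGscram (2.45 and 3.10) and CBR (2.68 and 2.61), against 1.72, 2.02, 2.35 and 2.17 CPM in the empty vector. 42YS (2.0 and 2.1), Block13del (1.89 and 2.20), A457_G461del (2.04 and 1.68), Block9del (1.82 and 1.43) and M2 (1.41 and 1.87) overlapped the empty vector. MUC1 rose with delIDR1 (log2 fold change 0.83 ± 0.166, adjusted p = 0.000395), DBDmut (0.77 ± 0.168), ARID1A WT (0.71 ± 0.171, adjusted p = 0.00217), ARID1B WT (0.53 ± 0.174, adjusted p = 0.0196) and the DDX4 hybrid (0.46 ± 0.168, adjusted p = 0.0377). CBR (0.37 ± 0.174, adjusted p = 0.0844) and AQGscram (0.44 ± 0.171, adjusted p = 0.0683) did not pass the test. The ARID1A WT call was lost without its replicate 2 (0.59, adjusted p = 0.055), and those of ARID1B WT and the DDX4 hybrid were lost against the own pair (0.39 ± 0.203, adjusted p = 0.119, and 0.32 ± 0.194, adjusted p = 0.177).

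EPCAM was below 1 CPM in all 28 libraries, at 3 to 18 reads each. Its means lay between 0.167 ± 0.00362 CPM with 42YS and 0.535 ± 0.139 CPM with AQGscram, against 0.482 ± 0.231 CPM in the empty vector. ARID1A WT had 0.293 and 0.375 CPM and ARID1B WT 0.33 and 0.283, inside the empty vector's range of 0.272 to 0.809. EPCAM fell with 42YS (log2 fold change -1.51 ± 0.565, adjusted p = 0.0453), a call that was lost without empty vector replicate 2 (-1.09, adjusted p = 0.164) or without either 42YS library, and passed the test with no other construct. No change of EPCAM was detected with the WT constructs (-0.53 ± 0.515 for ARID1A WT and -0.67 ± 0.523 for ARID1B WT). At this depth a small change could be missed.

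ESRP1, a splicing factor of epithelia, differed between the 2 pairs of empty vector libraries. Replicates 3 and 4 held 0.0654 and 0.0557 CPM (1 read each) against 3.63 and 4.45 CPM (80 and 99 reads) in replicates 1 and 2, 67.1 times lower (interval 18.3 to 559, adjusted p = 5.13e-10). Within set 1, delIDR1 held 1.00 and 1.39 CPM, CBR 0.616 and 0.932, DBDmut 0.192 and 0.0923, and ARID1A WT 0.0585 and 0.187, all below their own empty vector pair. The log2 fold changes against that pair were -1.75 ± 0.265 with delIDR1, -2.38 ± 0.292 with CBR, -4.79 ± 0.421 with DBDmut and -4.90 ± 0.442 with ARID1A WT (adjusted p = 3.35e-06, 1.07e-07, 3.06e-10 and 3.92e-10). In sets 2 and 3 every library had 0 to 6 reads of ESRP1, like the empty vector pair of set 2. Calls of lower ESRP1 in those groups against all 4 empty vector libraries rest on replicates 1 and 2. Against the own pair ESRP1 passed the test neither with the DDX4 hybrid (ratio 1.82 times higher, interval 0.326 to 18.5) nor with M2 (ratio 2.39 times higher, interval 0.455 to 23.6), and ARID1B WT and its pair held 1 and 2 reads in all.

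ESRP2, the paralogue, was below 1 CPM in 27 of 28 libraries, with 0.51 and 1.03 CPM in 42YS as its highest group and 0.68, 0.405, 0.196 and 0.39 CPM in the empty vector. It passed the test against all 4 empty vector libraries with no construct, and with replicates 3 and 4 as the only control it was higher with 42YS (1.35 ± 0.551, adjusted p = 0.049). In GENCODE v29 it overlaps NFATC3, which runs against it, and 90.4 to 98.1% of the stranded reads at ESRP2 lay on the side of such transcripts. They are not counted in the ESRP2 values, whose level is uncertain beside them. GRHL2 was below 1 CPM in all 28 libraries. CBR libraries held 0.704 and 0.606 CPM, ARID1A WT 0.0585 and 0.281 and ARID1B WT 0.0549 and 0.189, against 0.272, 0.315, 0.262 and 0.39 CPM in the empty vector. GRHL2 rose with CBR (log2 fold change 1.07 ± 0.392, adjusted p = 0.0274), and the call was lost without either CBR library or without empty vector replicate 1 (1.00, adjusted p = 0.0544). In no WT comparison against the empty vector did GRHL2 pass the test (-0.76 ± 0.535 and -1.25 ± 0.578).

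**Figure D2:**
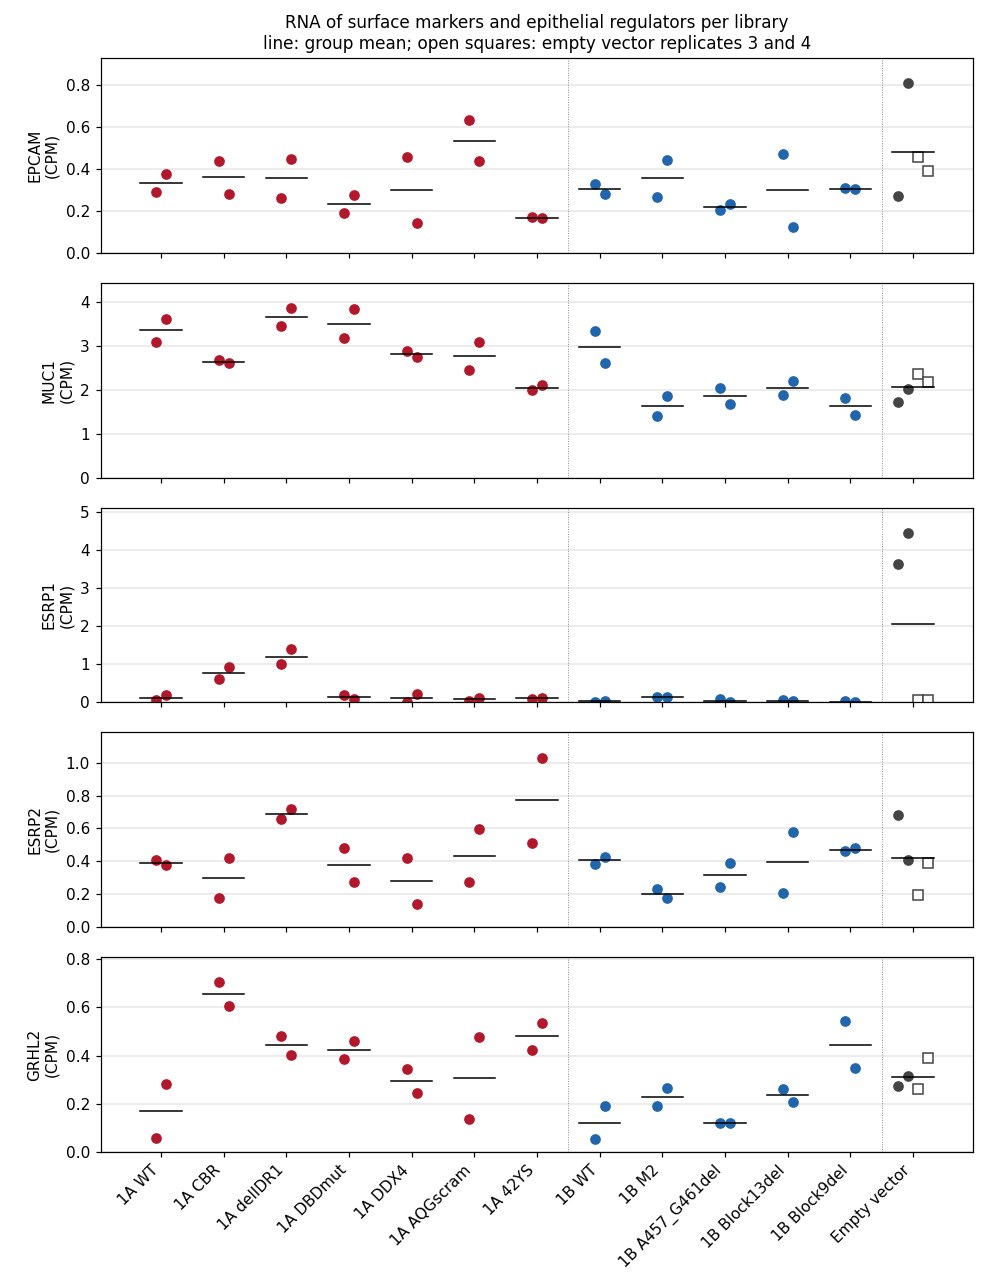
CPM of EPCAM, MUC1, ESRP1, ESRP2 and GRHL2, 1 point per library on linear axes from 0, with groups, colours and symbols as for the keratins. ESRP1 stood at 3.63 and 4.45 CPM in empty vector replicates 1 and 2 and at 0.0654 and 0.0557 CPM in replicates 3 and 4, and MUC1 did not leave the range of 1.41 to 3.86 CPM.

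KRT7 and KRT19, with at most 1 read in any empty vector library, passed the filter on low counts through the groups where they were high, so the counts that follow are a description. Over the 10 members, 7 passed the test with ARID1A WT against the empty vector, 6 higher (all 5 keratins and MUC1) and 1 lower (ESRP1), beside 44.5% of all genes tested. The median log2 fold change was 1.34 over the members, between the values of KRT18 and MUC1, and -0.06 over all genes tested. With ARID1B WT the same 6 members were higher and ESRP1 lower, beside 43.1% of all genes, with medians of 1.26 and -0.07. M2 had 5 higher, the 5 keratins, and 1 lower, beside 47.3%, with medians of 0.99 and -0.05. DBDmut had 5 higher and 1 lower, beside 35.1%, with medians of 0.90 and -0.03. CBR had 5 of 10 called, beside 53.1%, and delIDR1 5, beside 50.1%, which are shares near the background.

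The DDX4 hybrid had 5 of 10 called, 4 higher and 1 lower, beside 39.5% of all genes. A457_G461del also had 5, 4 keratins higher and ESRP1 lower, beside 39.0%. Block13del had 4, beside 39.3%, 42YS 2, beside 33.8%, AQGscram 1, beside 24.7%, and Block9del 1, beside 39.0%. These shares were near or below the background, and the only call of AQGscram and of Block9del was the lower ESRP1. Against the own pair the members called were 7 with ARID1A WT (background 60.7%), 7 with CBR (59.6%), 6 with delIDR1 (56.3%), 7 with DBDmut (59.0%), 3 with the DDX4 hybrid (50.5%), 5 with ARID1B WT (52.0%) and 5 with M2 (53.1%). Between the empty vector pairs 3 members were called, all lower in replicates 3 and 4: ESRP1, KRT80 and KRT8.

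**Figure D3:**
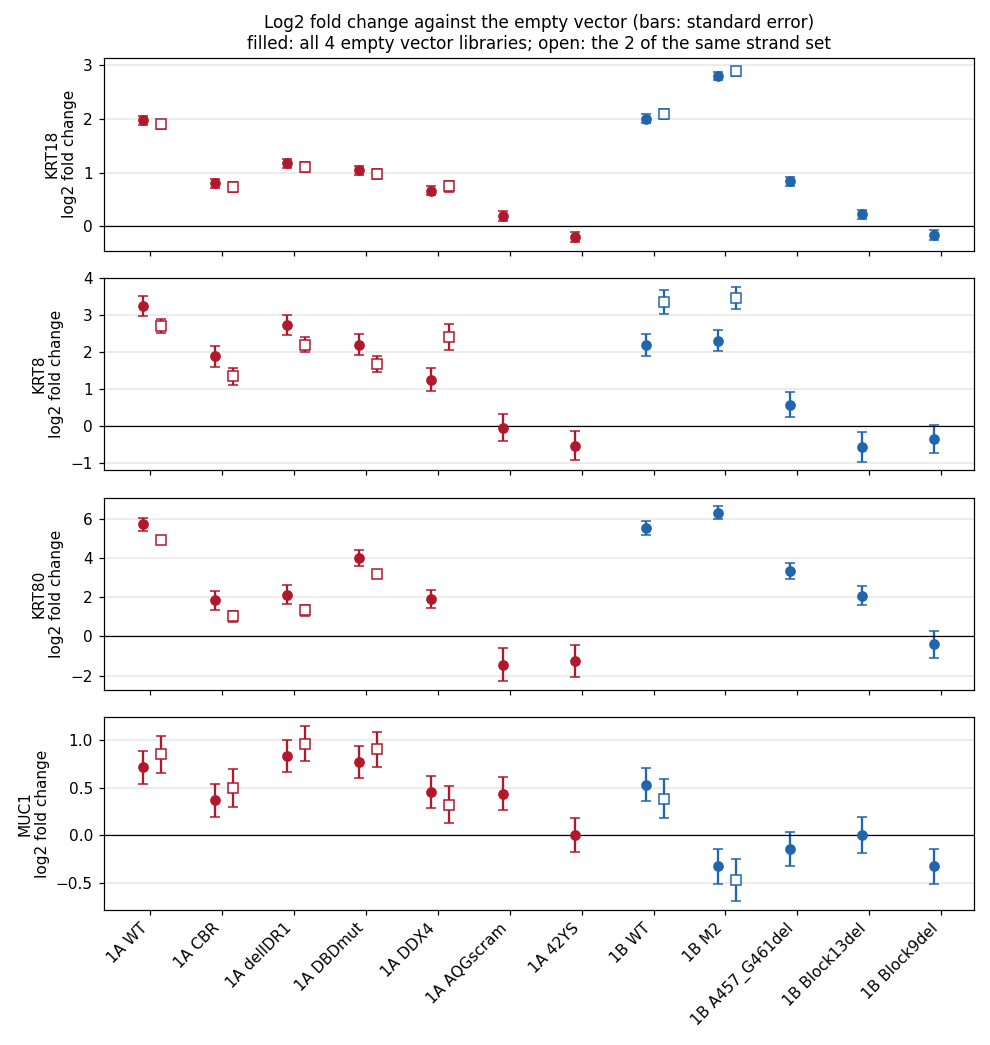
Log2 fold change of KRT18, KRT8, KRT80 and MUC1 in each construct against the empty vector, with SE as bars. Filled circles use all 4 empty vector libraries, and open squares the 2 of the same strand set, left out for KRT80 where these had no read. With ARID1B WT, KRT8 was 2.20 against all 4 libraries and 3.37 against the own pair, and KRT18 was 2.0 and 2.08.

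The truncations, the ARID-domain mutant and ARID1A WT share set 1, so these comparisons do not cross sets. CBR differed from ARID1A WT in 5 members, beside 47.5% of all genes: KRT80 (1.29 ± 0.236 against 19.2 ± 0.222 CPM, log2 fold change -3.90 ± 0.363, adjusted p = 6.99e-08), KRT18 (-1.17 ± 0.095), KRT8 (-1.36 ± 0.271) and KRT19 (19.5 times lower, interval 3.06 to 817) were lower and GRHL2 was higher (1.83 ± 0.521, adjusted p = 0.00728). The GRHL2 call was lost without ARID1A WT replicate 1 (1.21, adjusted p = 0.0935). KRT7 did not pass the test (1.55 ± 0.545 against 2.21 ± 0.273 CPM, log2 fold change -0.50 ± 0.339, adjusted p = 0.242). With delIDR1, KRT80 (1.59 ± 0.0928 against 19.2 ± 0.222 CPM, -3.59 ± 0.352), KRT18 (-0.79 ± 0.093) and KRT19 (at least 6.66-fold lower) fell relative to ARID1A WT, 3 members beside 40.2%, and KRT7 again did not pass the test (1.90 ± 0.337 against 2.21 ± 0.273 CPM, -0.21 ± 0.331).

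DBDmut differed from ARID1A WT in 4 members, beside 5.62% of all genes. This count is a description, because the members were chosen with earlier results of these data known. KRT80 (5.84 ± 0.365 against 19.2 ± 0.222 CPM, log2 fold change -1.72 ± 0.303, adjusted p = 0.000991), KRT7 (0.635 ± 0.0153 against 2.21 ± 0.273 CPM, -1.78 ± 0.387), KRT18 (24.2 ± 1.02 against 46.0 ± 0.148 CPM, -0.93 ± 0.094, adjusted p = 1.74e-06) and KRT8 (-1.04 ± 0.266, adjusted p = 0.0226) were lower. The KRT7 and KRT8 calls were lost without either DBDmut library or without ARID1A WT replicate 1. The DDX4 hybrid, of set 2, had all 5 keratins lower than ARID1A WT in the direct comparison, beside 36.5% of all genes (KRT18 -1.31 ± 0.094, KRT8 -1.99 ± 0.279, KRT80 -3.83 ± 0.351, KRT7 -4.25 ± 0.499 and KRT19 -1.95 ± 0.698). The KRT19 call was lost without DDX4 hybrid replicate 2 or either ARID1A WT library. As the difference of the own-pair responses, KRT18 was lower (-1.15 ± 0.132, adjusted p = 5.93e-08) and ESRP1 higher (5.71 ± 1.359, adjusted p = 0.001), beside 50.5%, and KRT7, KRT8, KRT80 and KRT19 did not pass the test. ESRP1 itself averaged 0.106 ± 0.149 CPM with the DDX4 hybrid and 0.123 ± 0.0911 CPM with ARID1A WT, and was not called in the direct comparison. Their empty vector pairs held 0.0606 ± 0.00683 and 4.04 ± 0.582 CPM, and the ESRP1 difference rests on that gap.

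ARID1B WT and ARID1A WT lie in different sets. Directly compared, KRT7 was higher and KRT8 lower with ARID1B WT (KRT8 2.52 ± 0.376 against 5.25 ± 0.934 CPM, log2 fold change -1.05 ± 0.268, adjusted p = 0.0136), 2 members beside 13.5% of all genes, and KRT18 did not pass the test (0.03 ± 0.092). The KRT7 call was lost without ARID1A WT replicate 2 or ARID1B WT replicate 1 (adjusted p = 0.0796 and 0.0653), and the KRT8 call without ARID1A WT replicate 1 or either ARID1B WT library (adjusted p = 0.0575 to 0.141). As the difference of own-pair responses, 1 member was called, KRT80, beside 41.6%, and that value rests on the empty vector pair without a KRT80 read. Between the mutants of set 3, 42YS had less KRT18 than AQGscram (10.3 ± 0.547 against 13.4 ± 1.9 CPM, -0.39 ± 0.103, adjusted p = 0.0145), the 1 member called beside 15.8%. That call was lost without AQGscram replicate 2 or 42YS replicate 2.

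Among the ARID1B constructs 4 of the 5 keratins stood in the order of ARID1B RNA itself. ARID1B RNA averaged 4250 ± 96.2 CPM with M2, 3597 ± 225 with ARID1B WT, 2236 ± 32.9 with A457_G461del, 883 ± 7.14 with Block13del and 344 ± 0.277 with Block9del, against 98 ± 6.54 CPM in the empty vector. KRT18 averaged 81.6 ± 2.3, 47.0 ± 1.42, 21.1 ± 0.025, 13.7 ± 1.11 and 10.5 ± 0.167 CPM in the same 5 constructs, KRT80 28.9 ± 0.675, 16.7 ± 0.359, 3.64 ± 0.271, 1.5 ± 0.408 and 0.268 ± 0.0506 CPM, and KRT7 7.06 ± 0.468, 5.72 ± 0.686, 0.796 ± 0.204, 0.267 ± 0.142 and 0.0194 ± 0.0274 CPM. KRT19 had the same order, whereas KRT8, with 0.37 ± 0.00439 CPM in Block13del and 0.43 ± 0.00576 CPM in Block9del, did not keep it at the low end. The first 2 constructs are of set 2 and the other 3 of set 3, and the part of ARID1B RNA in these differences was not tested.

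M2 exceeded ARID1B WT, within set 2, in KRT18 (log2 fold change 0.80 ± 0.09, adjusted p = 6.3e-06) and KRT19 (2.22 ± 0.326 against 0.837 ± 0.018 CPM, 1.40 ± 0.409, adjusted p = 0.0306), and had less MUC1 (1.64 ± 0.322 against 2.97 ± 0.534 CPM, -0.86 ± 0.204, adjusted p = 0.00739), 3 members beside 14.3% of all genes. The KRT19 call was lost without any 1 of the 4 libraries, and the MUC1 call without replicate 1 of either. A457_G461del exceeded Block9del in KRT80 (3.64 ± 0.271 against 0.268 ± 0.0506 CPM, 3.74 ± 0.516, adjusted p = 4.43e-05), KRT7 (ratio 39.0, interval 6.61 to 1578), KRT18 (1.00 ± 0.1, adjusted p = 7.7e-07) and KRT19 (at least 7.80-fold) and had less GRHL2 (-1.86 ± 0.557, adjusted p = 0.0329), 5 members beside 12.6%. The GRHL2 call was lost without either A457_G461del library or Block9del replicate 1. Against Block13del, A457_G461del had more KRT18 (0.62 ± 0.099, adjusted p = 0.000539), 1 member beside 5.48%, and KRT80 did not pass the test (1.26 ± 0.386, adjusted p = 0.063). Block13del and Block9del differed in no member by the edgeR test, beside 0.471% of all genes, in 4 members at an unadjusted p under 0.05 (KRT7, KRT18, KRT19 and KRT80), beside 4.26% of all genes, and in 1 member by DESeq2, beside 0.577%. The unadjusted count is given for this comparison alone, because no member was called in it. The log2 fold change of KRT80 was 2.48 ± 0.596 (adjusted p = 0.0959).

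**Figure D4:**
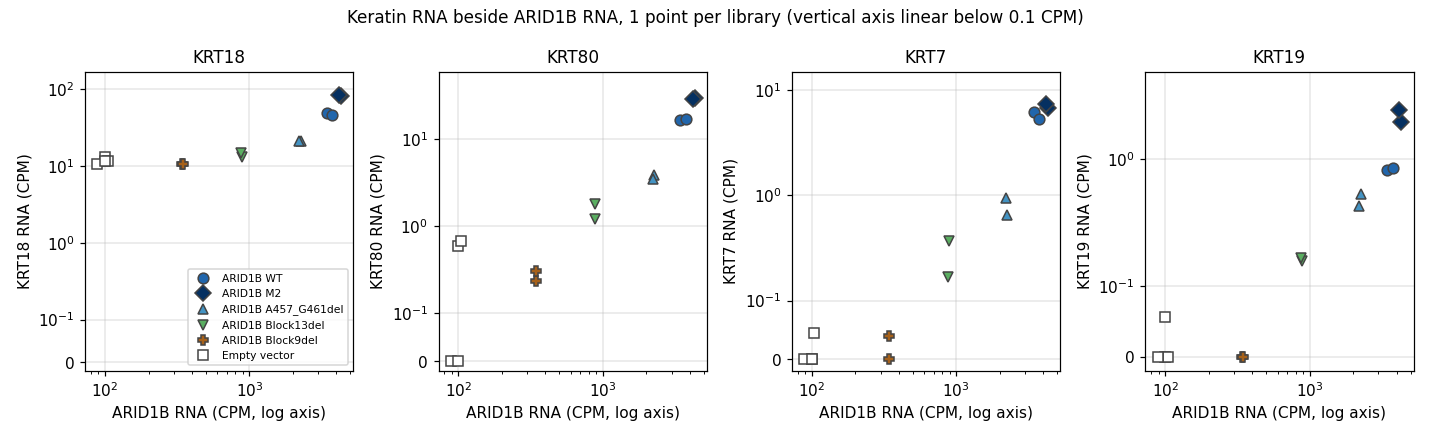
KRT18, KRT80, KRT7 and KRT19 CPM (vertical, linear below 0.1 and logarithmic above) against ARID1B CPM (horizontal, log axis), 1 point per library of the 5 ARID1B constructs and the empty vector (open squares). All 4 keratins were higher in constructs with more ARID1B RNA, with M2 at the upper right (4250 CPM ARID1B and 81.6 CPM KRT18) and Block9del near the empty vector.

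Across the 13 group means of log2 CPM the keratins resembled one another, as a description over groups that share libraries and strand sets. Pearson's r was 0.93 for KRT80 with KRT18, 0.92 for KRT7 with KRT18, 0.84 for KRT8 with KRT18 and 0.45 for KRT8 with KRT19. KRT18 had r of 0.11 with EPCAM, 0.23 with MUC1, 0.02 with ESRP1, -0.43 with ESRP2 and -0.48 with GRHL2. The genes most like KRT18 were FIBCD1, DUSP3 and CDK18 (r 0.984, 0.983 and 0.973), those most like KRT80 MAP4K3, CPA4 and SYNJ2 (0.978, 0.973 and 0.971) and those most like KRT7 BCAN, ISLR and VASN (0.976, 0.975 and 0.974). For KRT8 they were GAL3ST1, IL6R and STIM1 (0.977, 0.974 and 0.971), and for KRT19 MYL10, PICALM and CD47 (0.975, 0.974 and 0.968). Genes below 1 CPM had weaker matches, such as MAP2K6 for EPCAM (0.828).

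Of 17 further keratin genes 7 passed the filter. Of these, 4 had no read in the empty vector and passed it through the groups where they were high, so that their number is no result, and their values with ARID1A WT are given as a description: KRT13, a keratin of stratified non-cornified epithelium (1.88 ± 0.257 CPM, at least 49.1-fold higher), KRT15 (1.61 ± 0.952 CPM, at least 39.7-fold), KRT17 (1.29 ± 0.165 CPM, at least 33.0-fold) and KRT4, the partner of KRT13 (0.427 ± 0.141 CPM, at least 10.8-fold). KRT10, a keratin of the upper epidermis, was lower (26.1 against 37.6 CPM, log2 fold change -0.53 ± 0.188, adjusted p = 0.0267). Against the own pair 3 of the 7 were lower, where 60.7% of all genes were called in either direction. With ARID1B WT KRT15 reached 5.62 ± 0.603 CPM (at least 144-fold) and KRT13 2.92 ± 0.529 CPM (at least 74.8-fold). KRT13 had no read with CBR or delIDR1 and 0.187 ± 0.0612 CPM with DBDmut, against 1.88 ± 0.257 CPM with ARID1A WT. KRT15 did not keep the order of ARID1B RNA, with 3.55 ± 0.963 CPM with M2 and 5.62 ± 0.603 with ARID1B WT, then 1.08 ± 0.0302 with A457_G461del, 0.307 ± 0.211 with Block13del and 0.0969 ± 0.137 with Block9del.

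Of 29 junction genes 16 were tested, and 11 were higher with ARID1A WT and 9 with ARID1B WT, with none lower, beside 44.5 and 43.1% of all genes called. Against the own pairs 10 were higher and 1 lower with ARID1A WT, and 8 higher with ARID1B WT, beside 60.7 and 52.0%. Their median log2 fold changes against all 4 empty vector libraries were 0.97 and 0.62, against -0.06 and -0.07 over all genes. CLDN4, a claudin of tight junctions, averaged 5.69 ± 0.561 CPM with ARID1A WT and 3.84 ± 0.0886 CPM with ARID1B WT, against 0.398 ± 0.0962 CPM in the empty vector (log2 fold changes 3.85 ± 0.227 and 3.28 ± 0.235). JUP (plakoglobin, of desmosomes and adherens junctions) averaged 145 ± 1.07 and 163 ± 2.47 CPM, against 55.1 ± 7.18 CPM. The tight junction genes F11R and CGN were also higher in both (log2 fold changes 0.88 ± 0.067 and 1.51 ± 0.118 with ARID1A WT). In other constructs 13 junction genes were higher and none lower with CBR (beside 53.1% of all genes called), 13 and 1 with delIDR1 (50.1%), 10 and 1 with DBDmut (35.1%), 9 and none with the DDX4 hybrid (39.5%) and 11 and 1 with M2 (47.3%). AQGscram had 7 higher and 1 lower (24.7%), 42YS 4 and 3 (33.8%), A457_G461del 7 and none (39.0%), Block13del 6 and 1 (39.3%) and Block9del 5 and 2 (39.0%).

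Of 28 further surface and secreted genes 12 were tested, with 5 higher with ARID1A WT and 3 with ARID1B WT and none lower, at or below the 44.5 and 43.1% of all genes called (median log2 fold changes 0.67 and 0.36, against -0.06 and -0.07 over all genes). Against the own pairs 6 were higher with ARID1A WT, and 3 higher and 1 lower with ARID1B WT, beside 60.7 and 52.0% of all genes called. TSPAN1, a tetraspanin of secretory epithelia, averaged 3.89 ± 0.788 CPM with ARID1A WT and 1.05 ± 0.221 CPM with ARID1B WT, against 3 reads over the 4 empty vector libraries (ratios 102, interval 34.3 to 501, and 26.9, interval 8.58 to 136). PRSS8, the membrane protease prostasin, averaged 4.27 ± 0.0814 and 1.13 ± 0.274 CPM, against 0.084 ± 0.0744 CPM, and reached 6.64 ± 0.198 CPM with delIDR1. AP1M2, an adaptor subunit for basolateral sorting, was higher in both (1.59 ± 0.144 and 0.88 ± 0.152), and CD9 and ERBB3 were higher with ARID1A WT (0.43 ± 0.106 and 0.90 ± 0.289).

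Of 18 further epithelial regulators 8 were tested, with 5 higher with ARID1A WT and 3 with ARID1B WT and none lower, beside 44.5 and 43.1% of all genes called (median log2 fold changes 0.88 and 0.40, against -0.06 and -0.07 over all genes). Against the own pairs 6 were higher and 1 lower with ARID1A WT, and 4 higher with ARID1B WT, beside 60.7 and 52.0% of all genes called. GRHL3, a relative of GRHL2 that acts in epidermal barrier formation, averaged 1.47 ± 0.157 CPM with ARID1A WT and 4.47 ± 0.0487 CPM with ARID1B WT, against 0.135 ± 0.0966 CPM in the empty vector (log2 fold changes 3.32 ± 0.488 and 4.93 ± 0.416). RBM47, an RNA-binding protein, was also higher in both (1.64 ± 0.216 and 1.23 ± 0.224), and KLF5 and FOXA1 were higher with ARID1A WT (1.38 ± 0.362 and 0.39 ± 0.141).

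Mesenchymal genes did not move 1 way. Of 11 such genes 8 were tested, with 4 higher and 2 lower with ARID1A WT and 2 higher and 1 lower with ARID1B WT, beside the same 44.5 and 43.1%. Against the own pairs 5 were higher and 2 lower with ARID1A WT, and 2 higher and 2 lower with ARID1B WT, beside 60.7 and 52.0%. FN1, fibronectin, averaged 26.4 ± 0.978 CPM with ARID1A WT and 25.0 ± 0.227 CPM with ARID1B WT, against 88.1 ± 3.5 CPM in the empty vector (log2 fold changes -1.74 ± 0.095 and -1.82 ± 0.095), and QKI was lower with ARID1A WT (-0.61 ± 0.203). SNAI2, the repressor Slug, was higher in both (2.95 ± 0.465 and 3.37 ± 0.442), as was the splicing factor gene RBFOX2 (0.29 ± 0.09 and 0.54 ± 0.089). CDH2, N-cadherin, and SNAI1 were higher with ARID1A WT (3.95 ± 0.453 and 0.82 ± 0.253). Of the 4 endometrial identity genes tested, EMX2 (-2.20 ± 0.359 and -2.64 ± 0.378) and PAX2 (-0.30 ± 0.087 and -0.50 ± 0.088) were lower in both WT groups. The PAX2 call with ARID1A WT was lost against the own pair (-0.16 ± 0.07, adjusted p = 0.0577). There 2 of the 4 genes were higher and 1 lower, beside 60.7% of all genes called. With ARID1B WT all 4 were lower against its own pair, beside 52.0%. Of 4 fibroblast markers PDGFRA was higher in both, at 2.66 ± 0.208 CPM with ARID1A WT and 1.61 ± 0.186 CPM with ARID1B WT, against 0.0589 ± 0.0848 CPM in the empty vector, while DCN and LUM were at most 0.0466 CPM and THY1 at most 0.088 CPM in every library. The 4 markers summed to 2.52 to 2.81 CPM with ARID1A WT and 1.48 to 1.75 CPM with ARID1B WT, 2.21 to 3.46 with DBDmut, 1.18 to 1.47 with M2 and 1.26 to 1.49 with A457_G461del, against 0 to 0.225 CPM in the empty vector, and their part in the keratin values was not tested.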

How the data were processed

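RNA of 28 libraries was read after polyA selection with a NEB Next kit, per the labels' protocols. The authors deposited read counts per gene in 3 strand columns. The submitters' processing notes name STAR 2.5.2b, Bowtie2 2.29, bcl2fastq and the build hg19, with no role or order. The column that counts the strand opposite to each gene was used, and 21.6 to 36.3% of reads named no gene and were left out. The deposited counts were fitted over all 28 libraries and 13 groups with the quasi-likelihood test of edgeR 4.0.16 (R 4.3.3, TMM scaling, filterByExpr by group, no replicate block), with Benjamini-Hochberg adjustment over 14220 genes and a threshold of 0.05. An SE is the log2 fold change over the root of its F value. Where the group set against held 0 to 3 reads, a bound against 3 counts or a ratio with an exact counting interval replaces the fold change. The bound, written as "at least", takes the reads of the higher group as exact, without their counting error. Strand sets were read from the data.

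The members and gene lists were chosen with earlier results of these data known. All members are named, and of each list up to 4 called genes with the smallest p in each WT comparison. The values of 1 gene so chosen are not reported here. KRT10, ERBB3, FOXA1 and QKI, and RBFOX2 with ARID1A WT, were named after their values were seen. Same-numbered replicates did not deviate together (correlations of -0.051 to 0.06), so numbers were not taken as pairs. Alternatives were DESeq2 1.42.0, its size factors, no filter, strand ignored, a replicate block, only the groups compared, other empty vector libraries and each library left out.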

Additional observations from a re-analysis of the deposited data

Results flagged for a closer look

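KRT7 and KRT19 each had 1 empty vector library apart from the other 3, at 0.045 CPM for KRT7 in replicate 2 and 0.0557 CPM for KRT19 in replicate 4. Each value is 1 read beside 3 libraries with none, and a single read always sets the library that holds it apart.

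In 3 cases the response to 2 constructs differed when each was compared with the 2 empty vector libraries of the same strand set and the difference was tested with edgeR. Between the DDX4 hybrid and ARID1A WT, the difference of log2 fold changes was 5.71 ± 1.359 for ESRP1 (adjusted p = 0.001) and -1.15 ± 0.132 for KRT18 (adjusted p = 5.93e-08). Between ARID1B WT and ARID1A WT it was 6.64 ± 1.112 for KRT80 (adjusted p = 2.96e-05). The ESRP1 and KRT80 values rest on the gap between the empty vector pairs. Replicates 1 and 2 held 179 reads of ESRP1 and 28 of KRT80, whereas replicates 3 and 4 held 2 reads of ESRP1 and none of KRT80.

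Reads on the strand of KRT8, which the comparisons did not use, averaged 14.1 ± 0.379 CPM with ARID1B M2 against 1.78 ± 0.514 CPM in the empty vector.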

How the results depend on the processing

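Of 220 values (10 members in 22 comparisons), DESeq2's size factors left 219 and ignoring the strand 215 on the same side of the threshold and in the same direction, against 212 without the filter, 196 with the replicate block and 187 when only the groups compared were fitted, and no value turned round under these 5. Values turned round only with other control libraries. KRT80 turned higher with replicates 3 and 4 as the only control in AQGscram (4.57), 42YS (4.77) and Block9del (5.61), as did ESRP1 in AQGscram (0.46) and 42YS (0.74), and ESRP1 turned higher against the own pair in the DDX4 hybrid (0.81) and M2 (1.19). As the difference of own-pair responses, KRT80 (3.01) and ESRP1 (5.71) turned higher for the DDX4 hybrid, and KRT8 (0.66) and KRT80 (6.64) for ARID1B WT, each against ARID1A WT. All are log2 values, and those against 0 to 3 reads depend on the prior count. The cause was not tested.

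Counts of members called moved as follows. Own pairs gave 3 in place of 5 for the DDX4 hybrid against the empty vector, and the difference of own-pair responses gave 2 in place of 5 for the DDX4 hybrid and 1 in place of 2 for ARID1B WT against ARID1A WT. Replicates 1 and 2 as the only control gave 3 for AQGscram, 5 for 42YS and 4 for Block9del, and replicates 3 and 4 gave 2 for AQGscram, against 1, 2 and 1 with all 4. Fitting only the groups compared, with fewer samples for the spread, gave 1 for the DDX4 hybrid, 0 for AQGscram, 42YS, Block13del and Block9del and 3 for A457_G461del against the empty vector, 5 for delIDR1 against ARID1A WT, 5 for M2 against ARID1B WT, 0 for 42YS against AQGscram, 3 for A457_G461del against Block13del and 1 for Block13del against Block9del. The replicate block gave 3 for AQGscram, 5 for 42YS and 3 for Block9del against the empty vector, 5 for delIDR1 against ARID1A WT, 2 for 42YS against AQGscram, 4 for A457_G461del against Block13del and 1 for Block13del against Block9del, and changed no other count by over 1.5 times. Without the filter there were 1 for 42YS against the empty vector, 2 for A457_G461del against Block13del and 1 for Block13del against Block9del, as with DESeq2, which gave no adjusted p for 8 values. Ignoring the strand gave 1 for ARID1B WT against ARID1A WT.

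Leaving out each library in turn gave, against the empty vector, 5 to 7 members for ARID1A WT, DBDmut and ARID1B WT, 3 to 6 for CBR and the DDX4 hybrid, 5 to 5 for delIDR1, 0 to 2 for AQGscram, 0 to 3 for 42YS, 5 to 6 for M2, 4 to 6 for A457_G461del, 1 to 4 for Block13del and 0 to 1 for Block9del. Against ARID1A WT it gave 4 to 5 for CBR and the DDX4 hybrid, 3 to 4 for delIDR1, 2 to 4 for DBDmut and 0 to 1 for ARID1B WT. It gave 1 to 2 for M2 against ARID1B WT, 0 to 1 for 42YS against AQGscram, 1 to 1 for A457_G461del against Block13del, 4 to 5 against Block9del, and 0 to 0 for Block13del against Block9del. A group left with 1 library is assumed to vary like the others. EPCAM, ESRP2 and GRHL2 stayed at or under 25 reads a library, which limits the changes detectable.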
